A study of Mus musculus with 6 samples.

Results

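The cytosolic ribosomal protein genes were followed through kidney ageing in the mouse. They were chosen by symbol: Rpl or Rps followed by digits, with letter suffixes allowed, plus Rplp0, Rplp1, Rplp2 and Rpsa, and without the ribosomal S6 kinases, Rps19bp1 and pseudogenes ending in -ps. The rule gave 94 genes in the RefSeq table for mouse, of which 85 had a probe on the array and 83 could be tested, out of 20284 genes with a probe and 14548 tested. The whole-kidney RNA came from male C57BL/6 mice aged 20 months (aged, 3 RNA preparations) and 2 months (young, 3 preparations), and each preparation was hybridised to its own 1-colour Agilent array. The labels name no other treatment or allele, and they do not say whether each preparation was from a different mouse. The p-values therefore measure the spread between these preparations, which may be partly technical.

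A cytosolic ribosome is built from ribosomal RNA and a large and a small set of proteins made in near-equal amounts. The large subunit joins amino acids, the small subunit reads the messenger RNA, and the acidic P stalk on the large subunit recruits the translation factors that hydrolyse GTP. Most ribosomal protein messages begin with a 5′ terminal oligopyrimidine tract, a run of pyrimidines starting with C at the very first base, through which the mTOR pathway and the protein LARP1 control how well they are translated. That control acts on translation, which an array of RNA levels does not measure.

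The tract is shown for 5 members that come up in the results and is compared with the start of Rpl3l, a muscle paralogue that lacks it. Each line holds 20 bases before and 20 bases from the start of transcription annotated by RefSeq on build GRCm38.p6, read 5′ to 3′ on the strand of the gene, with the tract in capitals.

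Rps18, chr17:33955646-33955685, minus strand: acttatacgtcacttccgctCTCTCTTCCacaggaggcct

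Rps6, chr4:86857348-86857387, minus strand: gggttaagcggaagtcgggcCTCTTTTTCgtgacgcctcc

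Rps21, chr2:180257359-180257398, plus strand: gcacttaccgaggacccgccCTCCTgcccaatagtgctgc

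Rplp2, chr7:141447631-141447670, plus strand: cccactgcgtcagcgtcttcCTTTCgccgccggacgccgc

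Rps27, chr3:90213629-90213668, minus strand: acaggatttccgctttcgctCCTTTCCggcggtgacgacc

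Rpl3l, chr17:24727806-24727845, plus strand: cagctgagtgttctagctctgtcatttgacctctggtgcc

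A tract was counted where the annotated first base was C and at least 4 pyrimidines (C or T) followed it on the strand of the gene. By this rule 15 of the 68 members with a RefSeq promoter had it, or 22.1%, against 813 of 27025 genes in the whole promoter table, or 3.0%. Letting the tract begin up to 5 bases either side of the annotated start gave 32 of 68 members (47.1%) and 21.2% of all genes, so the share depends strongly on how exactly the start is annotated.

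Each value below is a log2 processed signal minus the 75th percentile of its array, so 0 is the level of a fairly bright spot. A change is the aged mean minus the young mean on that scale, given with its standard error (SE). The labelling used random primers. A probe can also take up signal from near-identical processed copies where these are transcribed, and ribosomal protein genes have such copies in large numbers. Which copies a probe detects was not checked, and each level is uncertain to that extent. Levels of different genes come from different probes and are not set against each other. Whole tissue was assayed, so fewer cells of a type and less RNA per cell cannot be told apart.

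The 6 arrays lay on the same slide, with all aged arrays in one row, all young arrays in the other and arrays of the same replicate number in the same column, and the row on the slide cannot be told apart from age. Between 46.2% and 62.8% of probes were well above background on aged arrays, and between 55.2% and 72.8% on young arrays. No spot was saturated. The kidney label fitted its markers: all 12 kidney markers listed were well above background on all 6 arrays, and none passed the test (median change -0.07). Among markers of other cells, 4 of 7 B and plasma cell genes, 4 of 11 T and NK cell genes, 3 of 11 macrophage and dendritic cell genes and 1 of 6 adipocyte genes were higher in aged kidney at an adjusted p below 0.05. These counts are of genes tested, for B and plasma cells 7 of 11 listed. Of the same lists, 1 B and plasma cell gene (Pax5) and 2 T and NK cell genes (Cd4 and Ncr1) had changes below 0. Pax5 was well above background on only 1 aged array and Ncr1 on 2. Both entered the test through the young group only. All 5 erythroid genes tested were below 0 (median change -0.17), and none passed the test. The part of these cells in the ribosomal protein values was not tested.

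No ribosomal protein gene differed between aged and young kidney at an adjusted p below 0.05 (limma, Benjamini-Hochberg over all 14548 genes). Of the genes tested in all, 3.38% passed that threshold, 1.98% higher and 1.4% lower. At an unadjusted p below 0.05, no member was higher and 3 were lower (Rps4l, Rplp1 and Rps23rg1), against 7.97% of all genes higher and 9.18% lower. The smallest adjusted p of any member was 0.207 (limma). The median change of the 83 members was -0.01, the same to 2 decimals as the median of all genes, with 37 members above 0 and 46 below.

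The 95% intervals limit the changes only with respect to the spread between these preparations under this scaling. They leave out differences between mice that the preparations may not cover, the slide row and the choice of processing. The change was within 0.25 of 0 for 77 of the 83 members, or 92.8%, against 70.5% of all genes. The 95% interval of the change lay within 0.5 of 0 for 70 members, or 84.3%, against 56.1% of all genes. It lay within 1 of 0, a 2-fold change either way, for 82 members, or 98.8%, against 89.5% of all genes, the exception being Rps23rg1. Shares this high were not particular to the members. Of the mitochondrial ribosomal protein genes, 94.8% changed by less than 0.25, and 89.6% had the interval within 0.5. For ribosome biogenesis genes these shares were 87.9% and 74.1%, and for elongation and initiation factors 83.9% and 54.8%. The part of probe brightness in these shares was not tested. The median SE was 0.12 for the members and 0.13 for all genes. An adjusted p above the threshold does not show that a gene was unchanged. The intervals of 13 members reached past 0.5, and for the others a moderate change is not excluded either. On simulated data the fit recovered 8 of 67 genes changed by 0.5, or 11.9%.

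**Figure D1:**
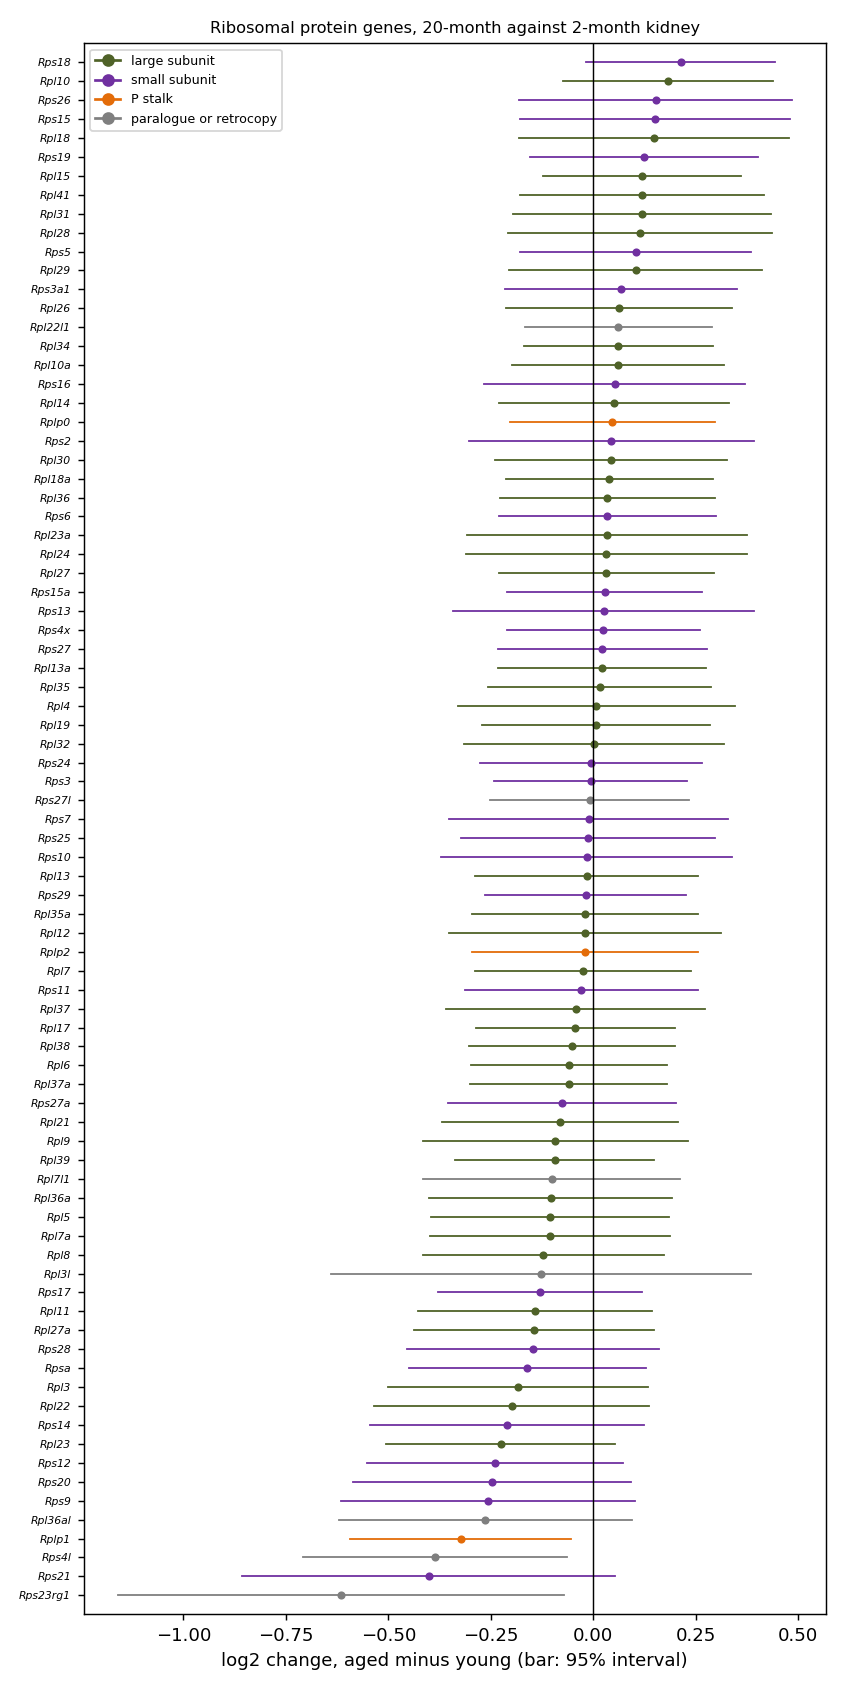
Log2 change, aged minus young, of 82 of the 83 ribosomal protein genes tested, ordered by change and coloured by group. Points are the fitted changes and bars their 95% intervals. The points run from -0.62 (Rps23rg1) to 0.21 (Rps18), and most lie within 0.25 of the line at 0.

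Both subunits are counted here without paralogues and retrocopies, and the large subunit also without the P stalk. Counted so, the large subunit was the most even group. Of the large-subunit genes set apart, Rpl36al (-0.26) and the P stalk gene Rplp1 (-0.32) changed by more than 0.25. All 43 tested genes that remained changed by less than 0.25, with 22 above 0, 21 below and a range of -0.23 to 0.18. The largest rise in value was that of Rpl10, a protein beside the catalytic centre that joins the large subunit late in its assembly. Its level was 4.60, 4.78 and 4.84 in aged kidney and 4.58, 4.60 and 4.49 in young kidney, a change of 0.18 ± 0.11 (SE, n = 3 each; limma adjusted p = 0.456). The aged values began where the young ones ended, so the groups just overlapped. The change was 0.05 with normexp background correction plus quantile normalisation and 0.08 when the probes of the gene were averaged.

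Rpl18 had 4.32, 4.35 and 4.76 in aged kidney and 4.29, 4.29 and 4.40 in young kidney. A single aged array lay clear of the others there, and without aged replicate 3 the change was 0.00 in place of 0.15. Rpl3, which reaches into the catalytic centre, changed by -0.18 ± 0.14 and Rpl22, an RNA-binding protein needed for T cell development, by -0.20 ± 0.14. Rpl22 was at 3.34, 2.88 and 3.35 in aged kidney and 3.36, 3.42 and 3.39 in young kidney. Its low value was again a single array, aged replicate 2, and the change without that array was -0.05. For Rpl3 it was -0.07 without the same array and -0.11 without young replicate 2.

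The 4 members with the brightest spots were Rpl41, Rps15, Rplp0 and Rpl24, with changes of 0.03 to 0.15. Whether the change of a member follows the brightness of its probe was not tested. Rpl41, which encodes a very short basic peptide, had 5.14, 5.32 and 5.53 in aged kidney and 5.14, 5.20 and 5.29 in young kidney, a change of 0.12 ± 0.13, which became 0.02 when aged replicate 3 was left out and 0.22 when aged replicate 1 was. Rpl24, which lies at the interface of the subunits, changed by 0.03 ± 0.15 (95% interval -0.31 to 0.38). Its other probe (A_55_P1956938), well above background on every array, changed by -0.34 without overlap of the groups. For that probe the unadjusted p was 0.034 and the adjusted p 0.277 (limma over probes). Which transcripts each detects was not tested. Rpl35 and Rpl5 each lacked a value, on aged replicate 2 and young replicate 2, because an outlier spot was left out. On the remaining arrays they changed by 0.02 ± 0.11 and -0.11 ± 0.12. Rpl5 binds the 5S ribosomal RNA and, when ribosome assembly fails, the p53 regulator MDM2.

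The small subunit, again without paralogues and retrocopies, held wider changes at both ends. Its 30 tested genes had a median change of -0.01, a range of -0.40 to 0.21, and 13 above 0 against 17 below. Rps18, in the head of the subunit, had the largest upward change of all members. It measured 3.68, 3.78 and 3.75 in aged kidney and 3.59, 3.47 and 3.52 in young kidney, a change of 0.21 ± 0.10 (SE, n = 3 each; 95% interval -0.02 to 0.44; limma adjusted p = 0.327). Every aged value lay above every young value, and Rps18 was the only member of which that was true, against 10.4% of all genes tested. The gap closed when its probes were averaged, where the change was 0.07. The other probe of Rps18 (A_55_P2135632), also well above background on every array, changed the opposite way, by -0.07 ± 0.13.

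Without paralogues and retrocopies, the lowest change in the small subunit was that of Rps21. It is a small protein needed in yeast for processing of the small subunit's RNA. Its level was 3.31, 2.49 and 2.93 in aged kidney and 3.29, 3.38 and 3.26 in young kidney, a change of -0.40 ± 0.20 (95% interval -0.86 to 0.05; limma adjusted p = 0.348). The 3 young arrays were close together, aged replicate 1 was among them, and the other aged arrays were lower. Without aged replicate 1 the change was -0.60, with an adjusted p of 0.069 (limma), the smallest that any member reached under any setting tried. Without aged replicate 2 it was -0.19 (limma adjusted p = 0.653). With normexp background correction plus quantile normalisation it was -0.20 (limma adjusted p = 0.699).

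Rps9, a protein involved in the accuracy of decoding, had 3.72, 3.33 and 3.83 in aged kidney and 3.73, 3.92 and 3.99 in young kidney (change -0.26 ± 0.15). Rps26, near the exit of the messenger RNA channel, had 4.15, 4.31 and 4.65 in aged kidney and 4.21, 4.28 and 4.17 in young kidney (change 0.15 ± 0.14). In both genes the groups overlapped, and an aged array stood apart, replicate 2 low in Rps9 and replicate 3 high in Rps26. Without those arrays the changes were -0.11 in Rps9 and 0.01 in Rps26. Rps15, close to the decoding site, had 4.88, 4.86 and 5.30 in aged kidney and 4.79, 4.87 and 4.93 in young kidney, again with aged replicate 3 on top and a change of 0.01 without it. Rps19, in which loss of a copy causes Diamond-Blackfan anaemia in humans, changed by 0.12 ± 0.12, and by 0.05 to 0.19 with an array left out.

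Rps6, the substrate of the S6 kinases and a common readout of mTOR signalling at the protein level, was almost level. It had 4.0, 4.13 and 4.31 in aged kidney and 4.08, 4.12 and 4.13 in young kidney, a change of 0.03 ± 0.11 (95% interval -0.23 to 0.30). Rpsa, also known as the laminin receptor precursor, changed by -0.16 ± 0.12, and by -0.05 without aged replicate 2. Phosphorylation of Rps6 was not measured here.

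The 3 genes of the P stalk changed by -0.32 to 0.05. Rplp1, which pairs with Rplp2 to form the arms of the stalk, was at 3.44, 3.22 and 3.39 in aged kidney and 3.67, 3.80 and 3.55 in young kidney. Every aged value lay below every young value, a change of -0.32 ± 0.12 (SE, n = 3 each; 95% interval -0.59 to -0.05; unadjusted p = 0.025, limma adjusted p = 0.207). Its partner Rplp2 had 3.89, 4.04 and 4.18 in aged kidney and 3.97, 4.04 and 4.16 in young kidney, and changed by -0.02 ± 0.12. The scaffold Rplp0, to which both attach and which is widely used as a reference gene, had 4.81, 4.93 and 5.00 in aged kidney and 4.77, 4.90 and 4.94 in young kidney. It changed by 0.05 ± 0.11, with a 95% interval of -0.20 to 0.30. Whether Rplp1 differed from its partners in its change was not tested.

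**Figure D2:**
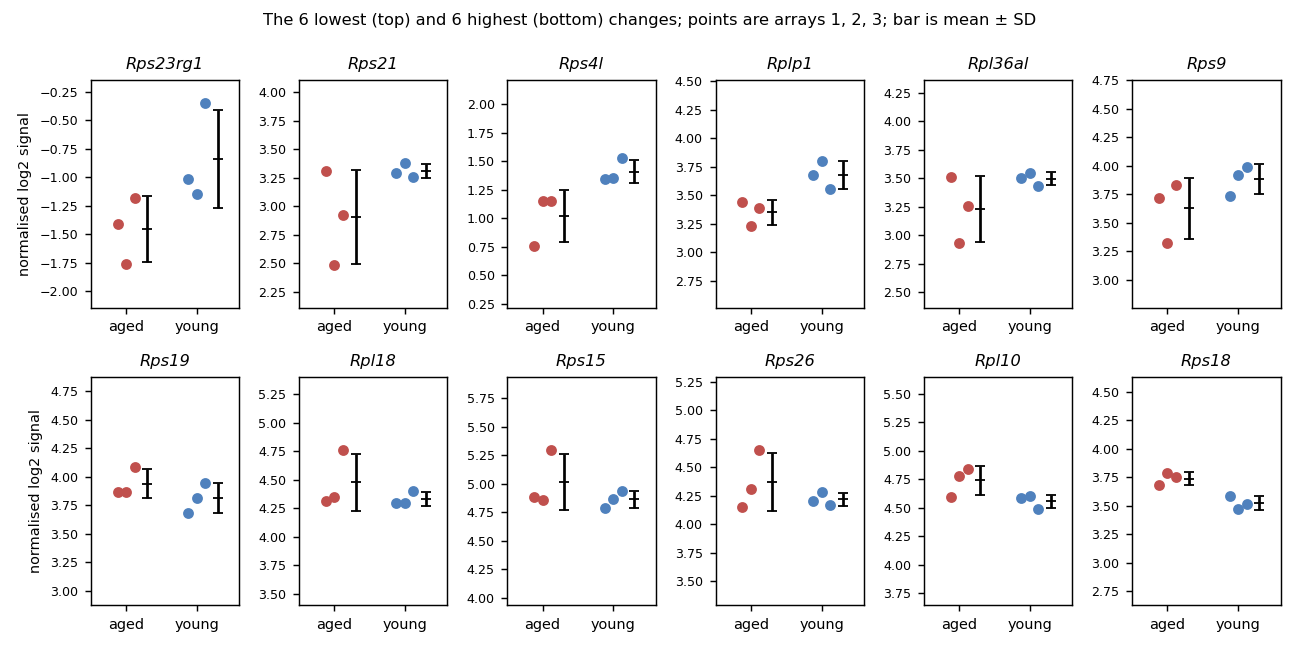
Normalised log2 signal of the 6 members with the lowest changes (top) and the 6 with the highest (bottom) on each array, aged left of young. Points are arrays, and the bar beside them is the mean ± SD of 3. Groups do not overlap in Rps23rg1, Rps4l, Rplp1 and Rps18, and the aged points of Rps21 are spread most widely in that row relative to the young ones.

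Among the groups of members, paralogues and retrocopies had the lowest median change. The 4 dimmest members tested, Rps23rg1, Rpl3l, Rps4l and Rpl7l1, all belong to this group, and the part of dimness in its changes was not tested. Of 9 such genes 7 were tested, with a median change of -0.13, 6 below 0 and 1 above; of all genes, 52.8% were below 0. Of these 7, Rps27l was at 0.03 after median centring and Rpl22l1 at -0.06 after normexp background correction plus quantile normalisation. Their signs therefore depend on the processing. Rps23rg1, a retroposed copy of Rps23, was at -1.41, -1.77 and -1.18 in aged kidney and -1.02, -1.15 and -0.35 in young kidney. This was the largest change among the members, -0.62 ± 0.23 or 0.652-fold (95% interval -1.16 to -0.07; limma adjusted p = 0.234), and the groups did not overlap. Young replicate 3 was the highest of the 6, and without it the change was -0.37. The parent gene Rps23 had no probe matched here.

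Rps4l, annotated as a transcribed pseudogene, was at 0.76, 1.15 and 1.16 in aged kidney and 1.35, 1.36 and 1.53 in young kidney. All aged values were lower, a change of -0.39 ± 0.14 (95% interval -0.71 to -0.06; limma adjusted p = 0.207), and of -0.26 without aged replicate 1. Its parent Rps4x, the X-linked small-subunit gene, changed by 0.02 ± 0.10. Counting Rps4l, Rplp1, Rps23rg1 and Rpl22, 4 members were lower in aged kidney without overlap, against 11.5% of all genes; in Rpl22 the gap was less than 0.01. These counts moved with the scaling, from 1 higher and 4 lower here to 5 higher and 3 lower after quantile normalisation and 0 of either kind after median centring.

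Of the 8 paralogue pairs, 6 had both genes tested. The difference in change between the genes of a pair was compared by a two-sided exact permutation test over 3 against 3 arrays, which cannot go below p = 0.1. Rps4l and Rps4x, whose changes differed by -0.41, and Rpl22l1 and Rpl22, whose changes differed by 0.26, reached that value (exact permutation p = 0.3 each after Benjamini-Hochberg adjustment over 6 pairs). Rpl22l1, which can stand in for Rpl22 in mouse tissues that lack it, had 2.84, 2.80 and 2.89 in aged kidney and 2.84, 2.75 and 2.76 in young kidney, a change of 0.06 ± 0.10.

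In the other 4 pairs the exact permutation p was between 0.3 and 0.9 for 3 against 3 arrays. Rpl36al, an expressed copy of Rpl36a, changed by -0.26 ± 0.15 and Rpl36a by -0.10 ± 0.13. Leaving out aged replicate 2 gave Rpl36al a change of -0.11, and leaving out aged replicate 1 gave -0.40. Rps27l, a p53 target, and Rps27 changed by -0.01 ± 0.10 and 0.02 ± 0.11. Rpl7l1 and Rpl7 changed by -0.10 ± 0.13 and -0.03 ± 0.11.

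Tissue-restricted paralogues were dim. Rpl3l, made mainly in heart and skeletal muscle, was at -1.85, -1.11 and -1.0 in aged kidney and -1.34, -1.09 and -1.13 in young kidney, with a wide interval of -0.64 to 0.38 and a change that turned from -0.13 to 0.14 without aged replicate 1. Rpl10l and Rpl39l, which serve male germ cells, were not tested. Rpl10l was well above background on 1 aged and 2 young arrays, and Rpl39l on none. The 9 genes of the rule that had no probe were Rps23 and the copies or variants Rpl32l, Rpl32p, Rpl37rt, Rpl6l, Rps12l1, Rps27rt, Rps3a2 and Rps3a3.

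Some members had several probes, which need not detect the same transcripts, and 33 had only 1. The 85 genes had 174 probes, up to 7 in Rpl17, and of the 169 tested probes none passed an adjusted p below 0.05 (limma over 30825 probes, of which 2.09% passed). At an unadjusted p below 0.05, 6 member probes were lower and none higher, against 9.42% and 5.98% of all probes. The changes of a gene's probes lay within 0.5 of each other for 47 of the 50 genes with more than 1 tested probe, with a median range of 0.163. They fell on both sides of 0 in 33 of these genes. The brightest probe stood for each gene, and the median change of the 83 members was -0.01. It was -0.02 over all 169 tested probes and -0.03 over the 86 that were not the brightest.

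Rpl6 and Rplp0 were among the exceptions, and were named after their values were seen. A dim probe of Rpl6 (A_55_P2043639) changed by -0.73, while the other 3 probes of that gene ran from -0.14 to 0.11. It was well above background on only 2 of the 3 aged arrays. In Rplp0, probe A_66_P105288 had 2.72, 2.07 and 2.12 in aged kidney and 2.63, 3.01 and 2.67 in young kidney, a change of -0.47, while the other 2 probes changed by 0.10 and 0.05. Which transcripts these probes detect was not tested.

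**Figure D3:**
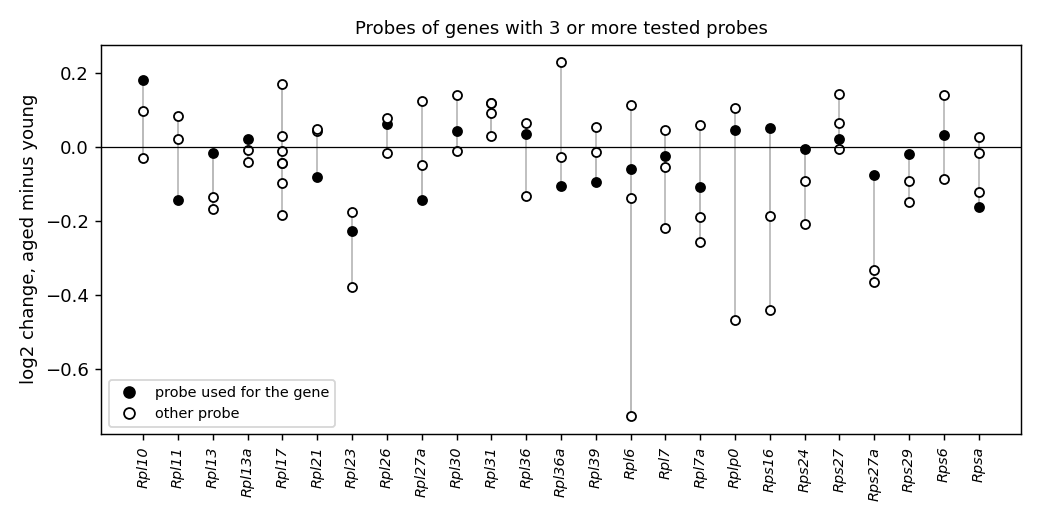
Log2 change, aged minus young, of every tested probe for 25 members with 3 or more tested probes. Filled points mark the probe used for the gene and open points the others, joined by a line per gene. Most lines are short and cross or touch 0, and the lowest points are probes of Rpl6 (-0.73) and Rplp0 (-0.47).

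The members did vary between arrays within an age. Set against each gene's mean over the 6 arrays, the member median was -0.06, -0.10 and 0.12 on the aged arrays and -0.04, 0.01 and 0.04 on the young arrays, with all genes between -0.03 and 0.04. Of the 81 members measured on every array, 44 were highest on aged replicate 3, as were 27.0% of all genes. Aged replicate 2 was lowest for 40 of the 81, against 22.7% of all genes. The 86 other probes of the members had the same arrays most often at the top and bottom, 39 highest on aged replicate 3 and 36 lowest on aged replicate 2.

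This showed as a wider spread in aged kidney. The median SD of a member over 3 arrays was 0.171 among aged and 0.0763 among young samples, and for 64 of 81 members the aged SD was the larger. For all genes the median SDs were 0.167 in aged and 0.124 in young samples, and the aged SD was larger for 64.6% of them. No test of the difference in spread was made, since members on an array are not independent. The array shift depended on scaling: after quantile normalisation the member medians were 0.02, -0.03 and -0.01 on aged arrays and -0.01, 0.02 and 0.01 on young arrays, with median SDs of 0.0969 in aged and 0.0739 in young samples. After median centring the shift was larger and shared by both ages, with medians of -0.21, -0.02 and 0.26 on aged arrays and -0.18, -0.04 and 0.17 on young arrays, so that replicate 1 was lowest and replicate 3 highest at each age. The median SDs were then 0.273 in aged and 0.183 in young samples. For all genes they were 0.156 and 0.124 after quantile normalisation, and 0.245 and 0.192 after median centring. The aged SD was larger for 69.1% of members and 60.3% of all genes after quantile normalisation. After median centring these shares were 79.0% and 63.5%. With normexp background correction plus quantile normalisation they were 64.2% and 62.9%, so the excess in members depended on the processing. Aged replicate 3 also had the dimmest array, with a 75th percentile signal of 2702 against 4205 and 4498 on the other aged arrays, and young replicate 3 had 2892 against 4061 and 4366. The part of array brightness in the shift was not tested.

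**Figure D4:**
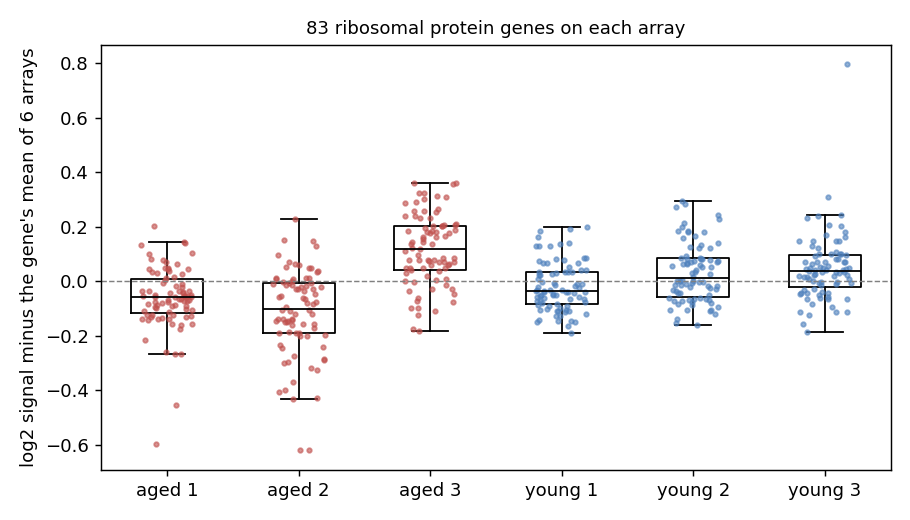
Log2 signal of the 83 members minus each gene's mean over the 6 arrays, by array, aged left of young. Points are genes, boxes the middle 50% and the line the median. The medians run from -0.10 on aged replicate 2 to 0.12 on aged replicate 3, and between -0.04 and 0.04 on the young arrays.

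Median changes were set side by side for members with and without a pyrimidine tract by the rule above. The 13 tested members with a tract at the annotated start had a median change of 0.02, between -0.40 (Rps21) and 0.21 (Rps18). Both ends of the small subunit, counted without paralogues and retrocopies, thus carry the tract printed above. The 49 tested members with a promoter and no tract at that base had a median of -0.01. Letting the tract begin within 5 bases gave medians of 0.02 for 29 members with it and -0.01 for 33 without. Because the rule depends strongly on the annotated start, this comparison cannot say whether the tract goes with the change. Translation of these messages was not measured.

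The rest of the translation machinery was examined in 5 further lists, and no gene in them passed an adjusted p below 0.05 (limma). Fau, which encodes a small-subunit protein fused to a ubiquitin-like sequence, changed by -0.10 ± 0.10 and Rack1, a signalling scaffold on the small subunit, by -0.08 ± 0.14. The 77 tested mitochondrial ribosomal protein genes had a median change of -0.05, with 22 above 0 and 55 below. The lowest p-values there belonged to Mrpl18 (-0.35 ± 0.13, limma adjusted p = 0.213) and Mrpl57 (-0.27 ± 0.11, limma adjusted p = 0.264).

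Of 31 elongation and initiation factor genes, 13 were above 0 and 18 below, with a median of -0.02. Eif2s2, the beta subunit of the factor that brings initiator tRNA, changed by -0.30 ± 0.12 (limma adjusted p = 0.259). Its values were 2.87, 2.68 and 2.61 in aged kidney and 2.91, 3.16 and 3.00 in young kidney, without overlap. Eif4g2, an initiation scaffold that does not bind the cap-binding protein, changed by -0.36 ± 0.15 (limma adjusted p = 0.278).

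Ribosome biogenesis genes, 58 in number, had a median change of 0.02, with 34 above 0, and none reached an unadjusted p below 0.05, against 17.1% of all genes in either direction. Fbl, the methyltransferase of ribosomal RNA, changed by -0.42 ± 0.19 and Nop53, a late assembly factor of the large subunit, by 0.35 ± 0.16. The 26 tested genes of mTOR and S6 kinase signalling had a median of 0.01. Rheb, the small GTPase that activates mTOR complex 1, was at 2.68, 2.87 and 2.99 in aged kidney and 2.67, 2.48 and 2.54 in young kidney, a change of 0.28 ± 0.12 (limma adjusted p = 0.290). Its groups were separated by less than 0.01. Mycn, a transcription factor of the Myc family that drives ribosomal genes in growing cells, changed by -0.49 ± 0.17 (limma adjusted p = 0.195).

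**Figure D5:**
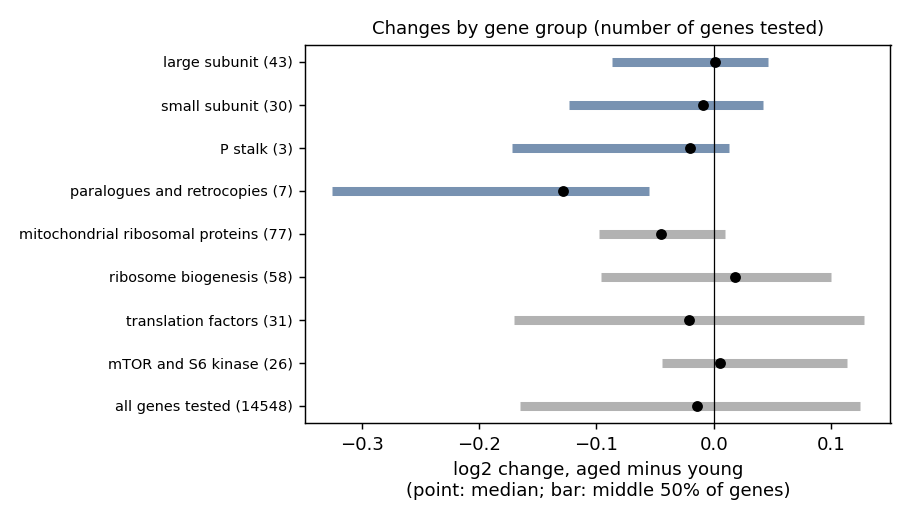
Median log2 change, aged minus young (points), and the middle 50% of genes (bars) for the 4 groups of ribosomal protein genes, 4 further lists and all genes tested, with the number of genes tested in brackets. The large and small subunit bars are narrower than that of all genes and lie across 0, and the paralogue bar lies below 0 with a median of -0.13.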

How the data were processed

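The deposited intensity values are Feature Extraction processed signals, background-subtracted within each array per the file headers (version 11.5.1.1, protocol GE1_1105_Oct12, grid on mm9). The authors' deposited log2 table was matched to these values, from which it differed by a median of 0.14 to 0.16 on every array (column medians -4.23 to -3.96), and served as an alternative. It is therefore a log2 signal scaled per array and not centred by gene, and the source of the small offset is not given in the sources used here. Total RNA was extracted with Trizol and cDNA labelled with Cy3 by Klenow enzyme, per the labels' protocols.

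Control spots and outlier-flagged spots were left out. The log2 processed signal was scaled to each array's 75th percentile, spots of a probe were averaged, and the probe with the highest mean stood for its gene. Probes were named through their RefSeq transcript in the RefSeq table of GRCm38.p6: 26762 of 55681 probes had 1 symbol and 28919 none. Genes entered the test if every array of the aged or of the young group had them well above background. The fit was limma's lmFit and eBayes (limma 3.58.1, R 4.3.3), aged minus young, on 6 arrays without covariates, and p-values were adjusted by Benjamini-Hochberg across the genes tested (threshold 0.05). It was tested on simulated data first, where it recovered 8 of 67 genes changed by 0.5, or 11.9%. At a change of 1 it recovered 54 of 67 (80.6%), and at a change of 2 it recovered 60 of 66 (90.9%). The number of arrays, 3 per age, limits the precision. RefSeq promoters were matched for 68 of 94 members.

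Members and lists were chosen with earlier results of these data known. Named in full were the 6 largest rises and falls, the 4 brightest and 4 dimmest members, the P stalk, Rpsa, Rps6 and the paralogue pairs; other lists gave the 2 genes with the smallest p. Alternatives covered scaling, background correction, filters, probe choice, variance model, array weights, the replicate block and leaving out each array. Normexp background correction was run on the median spot signal in place of the processed signal, and always together with quantile normalisation. Values of 2 genes are not reported here.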

Additional observations from a re-analysis of the deposited data

How the results depend on the processing

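No ribosomal protein gene passed an adjusted p below 0.05 (limma) in either direction under any of the 18 alternatives run, where between 0 and 1 member was higher and between 1 and 6 lower at an unadjusted p below 0.05. The median change of the members, -0.01, ranged from -0.093 without aged replicate 3 to 0.032 without aged replicate 2 over the fits that leave out an array, and was 0.03 after median centring, so its sign is not settled. With normexp and quantile normalisation the change of Rps18 was 0.07, of Rpl10 0.05, of Rps19 0.00, of Rps15 -0.02, of Rplp0 -0.06, of Rps21 -0.20 and of Rps9 -0.13; the cause was not tested. The number of all genes past the threshold, 491, was less stable: 800 after median centring, 16 with no filter on dim probes and 141 to 922 when an array was left out. The share of these calls that were higher was 58.7%, against 93.8% with no filter and between 37.3% and 74.5% when an array was left out. The labels give both ages the same replicate numbers, which match the slide columns, and arrays that share a number were alike in brightness. After scaling, their genes did not deviate together (correlations 0.06, -0.09 and 0.10), and aged replicate 1 correlated best with young replicate 2. With the replicate number as a block, 266 genes passed the threshold and no member did. A slide block was not run because all arrays lay on the same slide. Dim members and those with a spread aged group are the least well bounded.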
